A study of Mus musculus with 12 samples.

Results

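The MEIS and PBX families of TALE homeobox genes were followed in mouse neuronal progenitor cells (mNPCs), with 9 members: Meis1, Meis2, Meis3, Pbx2, Pbx3, Pbx4, Pknox1, Pknox2 and Tgif1. They were chosen by name, as cofactors of homeobox proteins that include the KMT2A target Meis1, and are 9 of the 18911 genes in the table of estimated counts. The cells were cultured from the hippocampus of P0 pups on a C57BL/6J background and sequenced as poly(A) RNA, with 3 libraries in each of 4 genotypes. Kmt2a+/+ cells carried no cassette. Kmt2a+/LSL cells carried, on 1 allele of the histone H3K4 methyltransferase gene Kmt2a, a stop cassette between loxP sites (LSL) in intron 1, which ends transcription of that allele early. The nes-cre+/- cells carried nestin-Cre, a Cre recombinase driven by nestin regulatory sequence in neural cells, and no cassette. The nes-cre+/-Kmt2a+/LSL cells carried both, so that Cre could remove the cassette. The LSL allele characterized came from 1 founder line, and the labels do not say whether the 3 libraries of a genotype came from separate pups or cultures, so p-values measure the spread between these libraries. With RNA from whole cultures, fewer cells that express a gene and less RNA per cell cannot be told apart.

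TALE proteins carry a homeodomain lengthened by a short loop, and bind DNA as partners of each other and of HOX and other homeodomain proteins. PBX proteins form dimers with MEIS or PKNOX proteins, which steer PBX into the nucleus and stabilize it on DNA, while TGIF1 acts mainly as a repressor that limits TGF-beta and retinoic acid responses. MEIS2 is known for its part in neurogenesis in the forebrain, and Meis1 is a well-known target of KMT2A in blood cells and in leukaemias with KMT2A fusions.

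The DNA upstream of Meis1 is shown because KMT2A carries a CXXC zinc finger that binds unmethylated CpG, and no occupancy or methylation was analysed here. It lies at chr11:19018986-19019219 of GRCm38.p6 on the minus strand, ends next to the first annotated base of the gene, and was taken from RefSeq promoter windows. Its 12 CpG are in capitals and the other bases in lower case, read 5′ to 3′.

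Meis1: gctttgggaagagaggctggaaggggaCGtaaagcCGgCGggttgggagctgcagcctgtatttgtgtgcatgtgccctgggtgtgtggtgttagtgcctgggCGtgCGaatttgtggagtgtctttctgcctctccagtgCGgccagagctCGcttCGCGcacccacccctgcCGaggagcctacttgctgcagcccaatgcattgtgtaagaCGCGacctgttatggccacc

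The whole RefSeq window of Meis1, 300 bases with 250 of them before the start site, held 15 CpG, more than or as many as in 67% of 32851 such windows, whose median was 7. For Meis2 the number was 13, for Pbx4 19, for Meis3 21 and for Pbx2 29, the last at the 88.3th percentile. The 5 windows of Tgif1 held between 2 and 23 CpG. The letters TGACAG, the core that MEIS and PKNOX proteins recognize, occurred on either strand in 19.2% of all windows and, among the 10 windows of 6 members, in 2 of the 5 of Tgif1. The letters TGATTGAT, bound by PBX with a HOX partner, occurred in 0.746% of all windows and in none of these 10. Windows for Pbx3, Pknox1 and Pknox2 were not used here.

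In GRCm38, Meis1 (ENSMUSG00000020160) lies on chromosome 11 from 18879817 to 19018985, Meis2 (ENSMUSG00000027210) on chromosome 2 from 115863064 to 116065839 and Meis3 (ENSMUSG00000041420) on chromosome 7 from 16175090 to 16186504. Pbx2 (ENSMUSG00000034673) lies on chromosome 17 from 34591266 to 34597400, Pbx3 (ENSMUSG00000038718) on chromosome 2 from 34171457 to 34373142 and Pbx4 (ENSMUSG00000031860) on chromosome 8 from 69832491 to 69872292. Pknox1 (ENSMUSG00000006705) lies on chromosome 17 from 31564734 to 31607693, Pknox2 (ENSMUSG00000035934) on chromosome 9 from 36890982 to 37147407 and Tgif1 (ENSMUSG00000047407) on chromosome 17 from 70844205 to 70853546. Reads of near-identical sequence were a concern for a few of them. Of the 31-base words in Meis1 transcripts, 17.6% also occur in other annotated genes, mostly in the overlapping gene Gm37818, which is not in the count table. Pbx2 shares 5.56%, from 227 exon bases on the same strand as the neighbouring gene Gpsm3, Pknox1 shares 2.17%, and the other 6 members share at most 0.384%. Kallisto could therefore divide some reads of Meis1 and Pbx2 differently from the true transcript.

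Table totals ran from 18280008 to 28596919 estimated counts per library, so that 3 counts corresponded to 0.103 to 0.178 CPM, counts scaled to the TMM-adjusted library size and the unit used below unless another is named. All 9 members had at least 80 counts in every library and passed the filter. Kmt2a+/+ replicate 1 stood apart, with a median correlation of log2 CPM of 0.903 with its own genotype, against 0.939 and 0.943 for the other 2 Kmt2a+/+ libraries and 0.967 to 0.984 for the remaining 9. Its progenitor markers went both ways: of 7, it was the highest of the 12 libraries for 3, with Fabp7 at 8960 against 2430 to 4930 elsewhere, and the lowest for 2, with Hes5 at 2.14 against 45.8 to 160. It was the lowest for all 5 oligodendrocyte lineage markers, which summed to 1140 against 3390 to 5520. Of 6 neuron markers, Map2 alone reached 980 to 1870, and the other 5 together, among them Tubb3 and Dcx, summed to 31 to 48.3. Markers of astrocytes summed to 2380 to 4510 across libraries, while 5 microglial markers summed to at most 1 and 6 endothelial and mesenchymal markers to at most 3.83. Of the 6 markers of ventral telencephalon, 5 were tested and summed to 7.05 to 20. The 4 Y-linked genes of the marker list summed to 159 to 272 in 8 libraries, among them all of Kmt2a+/LSL, and to 0.893 to 1.62 in Kmt2a+/+ replicate 3, nes-cre+/- replicates 1 and 2 and nes-cre+/-Kmt2a+/LSL replicate 3.

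Kmt2a, the targeted gene, was measured at 289, 300 and 281 in Kmt2a+/+ replicates 1, 2 and 3, at 166, 166 and 167 in Kmt2a+/LSL, at 283, 310 and 299 in nes-cre+/-, and at 273, 284 and 259 in nes-cre+/-Kmt2a+/LSL. Every Kmt2a+/LSL library lay below each of the other 9, so no library went against its label as Kmt2a+/LSL or not. Libraries of the other genotypes overlapped, so Kmt2a cannot check their labels against each other. The log2 difference of Kmt2a+/LSL from Kmt2a+/+ was -0.80 (SE 0.13, 95% interval -1.08 to -0.53, adjusted p = 0.281 in edgeR's quasi-likelihood test with Benjamini-Hochberg adjustment over 17076 genes).

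Levels of different members were compared per length, as counts divided by the mean annotated transcript length and scaled to values that sum to the same total in every library (TPM). Meis2 was the most abundant at 50 ± 9.62 TPM (SD, n = 12 libraries), followed by Pknox2 at 37.5 ± 5.21, Pknox1 at 36.5, Pbx2 at 33.1 and Meis3 at 23.8. Pbx3 had 19.5, Meis1 13.9, Pbx4 12.3 and Tgif1 10.1 TPM. In the order of these means, the 12 libraries of each gene overlapped those of the next, except that every library of Pbx3 lay above every library of Meis1. Meis2 stood at the 76.4th percentile of all tested genes by mean level and Tgif1, the lowest, at the 47th. The order depended on the length used: with the longest annotated transcript, Meis2 fell to 26.8 TPM, below Pknox2 at 30.4 and Pbx2 at 27.7. With either length the same 5 genes led, Meis2, Meis3, Pknox1, Pknox2 and Pbx2, and Meis1 was the least abundant of the MEIS genes.

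**Figure D1:**
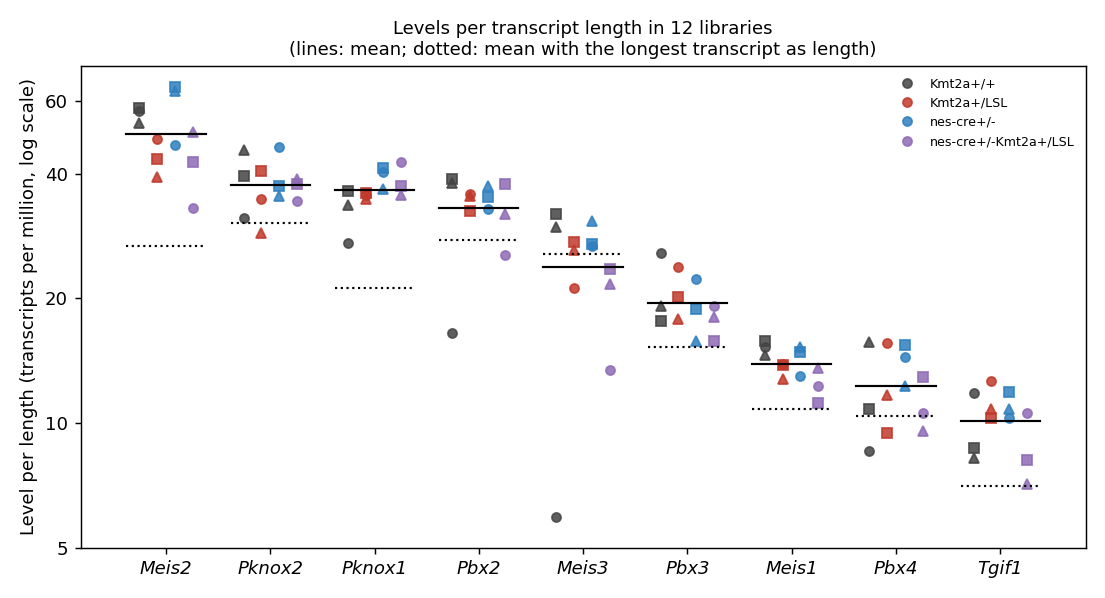
Levels per transcript length (TPM, log axis) of the 9 members, with 1 point per library coloured by genotype and shaped by replicate number; solid lines give the mean over 12 libraries and dotted lines the mean with the longest transcript as length. Meis2 was highest at a mean of 50 TPM and Tgif1 lowest at 10.1, and Kmt2a+/+ replicate 1 (dark circle) lay far below the other libraries for Meis3 and Pbx2.

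The first question was whether the LSL allele alone changed these genes, in Kmt2a+/LSL against Kmt2a+/+. Meis1 and Meis2 had their 3 Kmt2a+/LSL libraries below all 3 Kmt2a+/+ libraries, and neither passed the test. None of the other 7 members separated the genotypes. Of the 9 members, 0 had an adjusted p under 0.05 in edgeR, where 0% of the 17076 genes tested did, and 0 had an unadjusted p under 0.05, where 1.79% of genes did. DESeq2's Wald test and limma-voom also called 0 of the 9.

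Meis1 measured 37.8, 35.5 and 32.7 in the Kmt2a+/+ libraries and 30.9, 30.8 and 28 in the Kmt2a+/LSL libraries. The genotypes did not overlap, and the gap between them was narrower than the spread within Kmt2a+/+. The means were 35.3 ± 2.58 and 29.9 ± 1.67 (SD, n = 3 each), a log2 fold change of -0.24 (SE 0.16, 95% interval -0.60 to 0.12, adjusted p = 1 in edgeR, exact permutation p = 0.1, two-sided, the lowest that 3 libraries against 3 allow). Adjusted p-values of Meis1 under the alternative settings lay between 0.659 and 1. The 95% interval left out a 2-fold loss of Meis1 and reached down to 0.659 times the Kmt2a+/+ level.

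Meis2, the most abundant of the 9 per mean transcript length, measured 69.9, 64.7 and 59.3 in Kmt2a+/+ and 54.1, 48.7 and 42.9 in Kmt2a+/LSL. Here, too, the libraries of the genotypes were separate. The means were 64.6 ± 5.32 and 48.5 ± 5.6 (SD, n = 3 each), with a log2 fold change of -0.41 (SE 0.20, 95% interval -0.86 to 0.03, unadjusted p = 0.0665 and adjusted p = 1 in edgeR, two-sided exact permutation test p = 0.1). Its adjusted p lay between 0.578 and 1 under the alternative settings, and leaving out single libraries gave differences of -0.50 to -0.33. Among all 17076 genes tested, 4.05% had libraries that did not overlap between these genotypes, against the 2 of 9 members, Meis1 and Meis2. The Kmt2a+/+ library with a low Y-linked sum, replicate 3, was the lowest Kmt2a+/+ library for both genes, and the 2 Kmt2a+/+ libraries with a high sum also lay above all of Kmt2a+/LSL. Whether sex had a part in the result was not tested.

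Meis3 measured 25 and 23.1 in Kmt2a+/+ replicates 2 and 3 but 5.12 in replicate 1, against 16.5, 21.3 and 20 in Kmt2a+/LSL. The direction turned with that 1 library: the log2 fold change was 0.11 (95% interval -0.87 to 1.09) with it and -0.32 without it. Pbx2, one of the widely expressed PBX genes, behaved alike, at 17.7, 37.7 and 36.6 in Kmt2a+/+ and 34.4, 31.4 and 33.4 in Kmt2a+/LSL, with 0.11 (95% interval -0.47 to 0.68) and -0.17 without that library. Kmt2a+/+ replicate 1 had 0.212 times the mean of the other 2 Kmt2a+/+ libraries for Meis3 and 0.475 times for Pbx2, against 1.55 times for both Pbx3 and Tgif1, and 0.715 to 1.13 times for the remaining 5 members. Such gaps were common in that library: of 11673 genes with a mean of at least 50 counts and a count in at least 1 of the other 2 Kmt2a+/+ libraries, 29.7% were below 0.5 times and 17.5% above 2 times.

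Pbx3 measured 24.2, 14.9 and 16.3 in Kmt2a+/+ and 20.1, 17.1 and 14.8 in Kmt2a+/LSL, with a log2 difference of -0.09 (95% interval -0.60 to 0.42) that became 0.15 without Kmt2a+/+ replicate 1. Pbx4 measured 4.76, 5.45 and 7.86 against 7.8, 4.75 and 5.73, a difference of 0.01 (95% interval -0.58 to 0.60). The PBX genes thus overlapped between the genotypes in every case, and their direction rested on single libraries.

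Pknox1 and Pknox2 encode PBX partners closely related to the MEIS proteins. Pknox1 was among the steadiest members, at 28.2, 34.2 and 31.4 in Kmt2a+/+ and 33.1, 33.7 and 31.8 in Kmt2a+/LSL, a log2 difference of 0.07 (95% interval -0.26 to 0.41). Pknox2 measured 38.4, 44 and 50.6 against 38.4, 45.1 and 31.3, a log2 fold change of -0.21 (95% interval -0.63 to 0.20) that was -0.37 without Kmt2a+/LSL replicate 2 and -0.09 without replicate 3. Tgif1, the repressor of the group, measured 10.9, 7.24 and 6.83 against 10.4, 8.57 and 8.75, a log2 difference of 0.16 (95% interval -0.38 to 0.69) that was 0.40 without Kmt2a+/+ replicate 1 and 0.03 without replicate 3. All of these overlapped. Over the 9 members, 4 were lower and 5 higher in Kmt2a+/LSL, with a median log2 fold change of 0.01, where 49.8% of all genes were lower and their median was 0. For 8 of the 9 the 95% interval lay within 2-fold in either direction, the exception being Meis3.

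**Figure D2:**
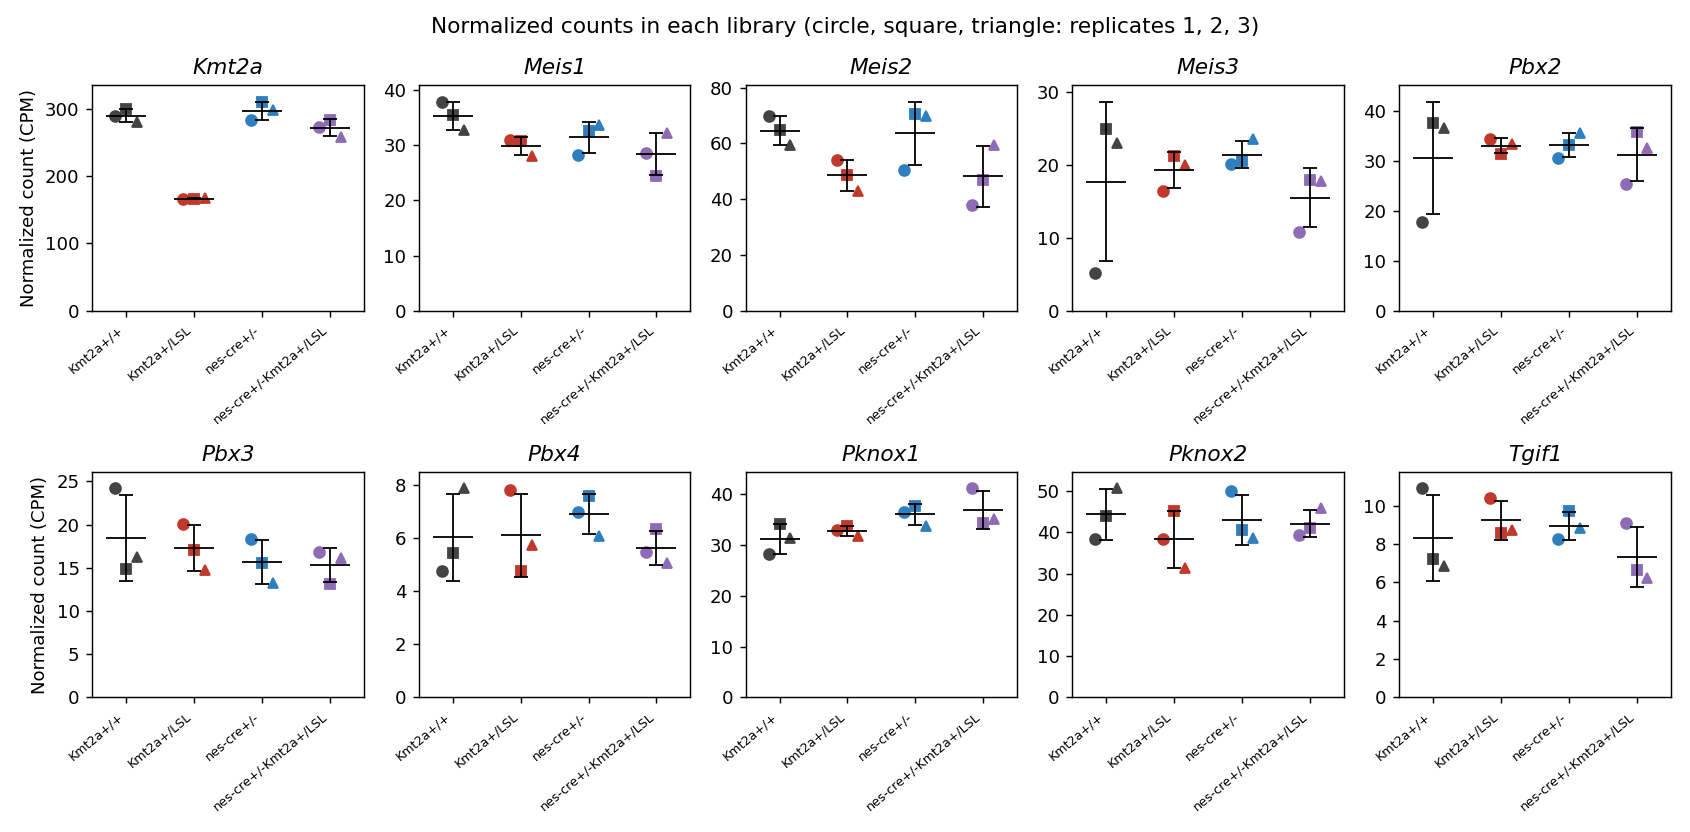
Normalized counts (CPM, axes from 0) of Kmt2a and the 9 members in each of the 12 libraries, by genotype; bars give the mean and SD of 3 libraries, and shapes the replicate number. Kmt2a was 166 to 167 in Kmt2a+/LSL and at least 259 elsewhere, while Meis1 and Meis2 were lower in Kmt2a+/LSL than in Kmt2a+/+ without overlap and Kmt2a+/+ replicate 1 (circle) stood apart for Meis3 and Pbx2.

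The next comparison was nes-cre+/-Kmt2a+/LSL against Kmt2a+/LSL, in which removal of the cassette and nestin-Cre itself cannot be told apart. It shares the Kmt2a+/LSL libraries with the first, so the values are given side by side and not compared. Kmt2a was higher in every nes-cre+/-Kmt2a+/LSL library, with a log2 fold change of 0.71 (SE 0.12, 95% interval 0.44 to 0.99, unadjusted p = 0.000125 and adjusted p = 1 in edgeR). Meis1 and Meis2 differed by less than the spread between libraries. Of the 9 members, 0 passed at an adjusted p (0% of all genes) or at an unadjusted p under 0.05 (1.61% of all genes), and 1, Pknox1, had libraries that did not overlap, where 7.1% of all genes had.

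Meis1 measured 28.5, 24.5 and 32.2 in nes-cre+/-Kmt2a+/LSL, which differed from Kmt2a+/LSL by -0.07 on the log2 scale (SE 0.16, 95% interval -0.43 to 0.29). Meis2 measured 38.1, 46.8 and 59.6, a difference of -0.01 (SE 0.20, 95% interval -0.46 to 0.43). Both genes spread more widely than in Kmt2a+/LSL, with replicate 3 the highest in each case, and both overlapped it.

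Pknox1 measured 41.2, 34.3 and 35.2 in nes-cre+/-Kmt2a+/LSL, above 33.1, 33.7 and 31.8 in Kmt2a+/LSL (log2 difference 0.17, SE 0.15, 95% interval -0.17 to 0.50, adjusted p = 1 in edgeR, two-sided exact permutation test p = 0.1). The gap between the groups was narrow beside the spread in nes-cre+/-Kmt2a+/LSL. The lowest adjusted p of Pknox1 under the alternative settings was 0.0663, with DESeq2's z-scores rescaled to an empirical null. With nestin-Cre and no cassette, in nes-cre+/- against Kmt2a+/+, Pknox1 differed by 0.21 (95% interval -0.13 to 0.54). Pknox2, at 39.4, 41.1 and 45.8, differed by 0.14 and was the other member that was higher. Tgif1, at 9.11, 6.63 and 6.25, differed by -0.34 (SE 0.25, 95% interval -0.87 to 0.20), and Meis3, at 10.8, 17.9 and 17.8, by -0.31, or -0.11 without nes-cre+/-Kmt2a+/LSL replicate 1. Pbx2, Pbx3 and Pbx4 differed by -0.08, -0.18 and -0.12. Thus 7 of the 9 members were lower, with a median of -0.08, where 49.5% of all genes were lower. In the same comparison 5 of 5 astrocyte markers were lower, with a median of -0.39, as were 4 of 4 Y-linked genes, also with -0.39. Higher were 5 of 5 markers of ventral telencephalon, with a median of 0.45. So were 5 of 5 endothelial and mesenchymal markers (at most 0.782 CPM on average), with a median of 0.44. None of these passed an unadjusted p of 0.05, and their part in the result was not tested.

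Nestin-Cre was also tested on its own, in nes-cre+/- against Kmt2a+/+. Here 0 members passed at an adjusted p (0% of all genes), 0 at an unadjusted p under 0.05 (1.4% of all genes), and 0 had libraries that did not overlap (4.35% of all genes). Meis1 measured 28.2, 32.5 and 33.6 in nes-cre+/-, a log2 difference of -0.17 (SE 0.16, 95% interval -0.53 to 0.19), and Meis2 50.6, 70.7 and 69.7, a log2 fold change of -0.02 (SE 0.20, 95% interval -0.46 to 0.42). For both genes nes-cre+/- replicate 1 was the lowest library of the group and fell within the Kmt2a+/LSL range. Meis3, at 20.1, 20.6 and 23.6, differed by 0.27 and by -0.17 without Kmt2a+/+ replicate 1. Pbx2, at 30.7, 33.2 and 35.6, differed by 0.11 and by -0.17 without that library. Pknox1, at 36.6, 37.8 and 33.8, showed 0.21 (SE 0.15, 95% interval -0.13 to 0.54), and the others lay between -0.23 for Pbx3 and 0.19 for Pbx4.

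With nestin-Cre in both groups, nes-cre+/-Kmt2a+/LSL against nes-cre+/- compared libraries with and without the LSL allele. Kmt2a differed by -0.13 (95% interval -0.40 to 0.14), with overlapping libraries. Meis2 was lower on average, at 38.1, 46.8 and 59.6 against 50.6, 70.7 and 69.7, with a log2 fold change of -0.40 (SE 0.20, 95% interval -0.85 to 0.04, unadjusted p = 0.0724 and adjusted p = 1 in edgeR, two-sided exact permutation test p = 0.2). The highest library of the first group lay above the lowest of the other, so the genotypes overlapped. With nes-cre+/-Kmt2a+/LSL replicate 3 left out the difference was -0.58, and with replicate 1 left out -0.26. The adjusted p lay between 0.06 and 1 under the alternative settings.

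Meis3 was the 1 member whose libraries did not overlap in this comparison, at 10.8, 17.9 and 17.8 against 20.1, 20.6 and 23.6, where 6.68% of all genes did not. Its log2 fold change was -0.47 (SE 0.45, 95% interval -1.45 to 0.51, adjusted p = 1 in edgeR, two-sided exact permutation test p = 0.1), and -0.26 without nes-cre+/-Kmt2a+/LSL replicate 1. Meis1 differed by -0.15 (95% interval -0.51 to 0.22, and -0.24 to -0.05 with single libraries left out), Pbx4 by -0.29 and Tgif1 by -0.28. In all, 8 of the 9 members were lower, with a median of -0.15 against a median of 0 over all genes, of which 48.9% were lower. Beside them 4 of 5 astrocyte markers were lower, with a median of -0.29, while 4 of 5 endothelial and mesenchymal markers, which averaged at most 0.782 CPM (Col1a1), and 4 of 4 Y-linked genes were higher, with medians of 0.38 and 1.01, none past an unadjusted p of 0.05, and their part in the result was not tested. Only Pknox1 was higher, by 0.03. None of the 9 passed at an adjusted p (0% of all genes) or an unadjusted p under 0.05 (1.11% of all genes), and the members share libraries and are not replicates.

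**Figure D3:**
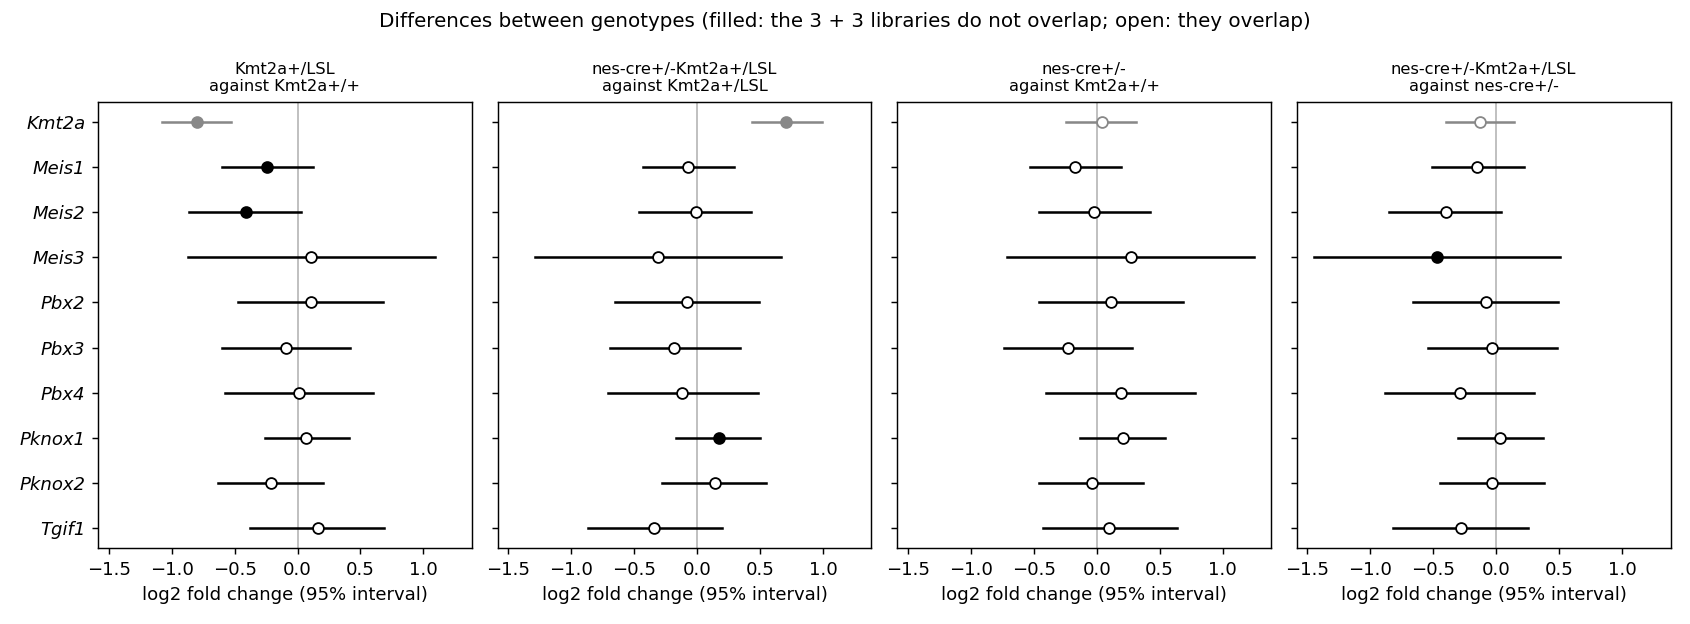
Log2 fold changes with 95% intervals from the edgeR fit for Kmt2a (grey) and the 9 members in 4 comparisons; filled points mark genes whose 3 libraries in each genotype do not overlap. The intervals of all 9 members include 0 in each panel, as for Meis2 from -0.86 to 0.03 in Kmt2a+/LSL against Kmt2a+/+, while that of Kmt2a excludes 0 in the first and second panels.

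The log2 difference of Meis2 between libraries with and without the LSL allele was -0.41 without and -0.40 with nestin-Cre, neither past the test, and the test of the difference between them gave 0.01 (SE 0.29, 95% interval -0.62 to 0.64), or -0.17 to 0.15 with single libraries left out. For Meis1 the difference was 0.10 (SE 0.23, 95% interval -0.41 to 0.60), for Meis3 -0.58 (SE 0.63) and for Tgif1 -0.44 (SE 0.35). Without Kmt2a+/+ replicate 1 that of Meis3 was -0.15 and that of Tgif1 -0.68. For Pknox1 the difference was -0.04 (SE 0.22, 95% interval -0.52 to 0.44). For Kmt2a itself the difference was 0.67 (SE 0.18, 95% interval 0.29 to 1.06, unadjusted p = 0.00263 and adjusted p = 1 in edgeR). None of the 9 members passed at an adjusted p (0% of all genes) or an unadjusted p under 0.05 (1.73% of all genes).

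Against the mean of the other 3 genotypes, Kmt2a differed in Kmt2a+/LSL by -0.78 (SE 0.11, adjusted p = 0.103 in edgeR, exact permutation p = 0.00455 over 220 choices of libraries, two-sided and the lowest possible). Among the members, Meis2 differed most, by -0.26 (SE 0.17, 95% interval -0.63 to 0.10, exact permutation p = 0.186), followed by Tgif1 at 0.18 and Pknox2 at -0.17. This order rested on single libraries: with 1 left out, Meis2 ran from -0.35 to -0.18, Tgif1 from 0.09 to 0.27 and Pknox2 from -0.32 to -0.05. The lowest adjusted p of Meis2 here under the alternative settings was 0.077, with DESeq2's z-scores rescaled to an empirical null. Meis1 differed by -0.08 (SE 0.13, 95% interval -0.38 to 0.22), and all 9 intervals lay within 2-fold. Of the members, 0 passed at an adjusted p, where 1 gene, Grb10, did (0.00586% of all genes; its edgeR adjusted p was 0.0209, and 0.118 with the replicate block), and 0 at an unadjusted p under 0.05, where 1.2% of genes did. A test of any difference among the 4 genotypes likewise called 0 of the 9 at an adjusted p (0% of all genes) or at an unadjusted p under 0.05 (1.15% of all genes), with the lowest unadjusted p of 0.0965 for Meis2. In each of these comparisons fewer genes had an unadjusted p under 0.05 than the 854 that chance alone would give, at most 306. The spread among replicates that counting error does not account for, given as a biological coefficient of variation, was 0.368.

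Across the 12 libraries Meis1 and Meis2 varied together, with a Pearson correlation of log2 CPM of 0.793 and a Spearman correlation of 0.846. Pearson's r was 0.713 after the genotype means were taken out and 0.848 without the 2 libraries farthest from the median of Meis1. The other close pair was Meis3 and Pbx2 at 0.951, with a Spearman correlation of 0.643. Its r was 0.963 after the genotype means were taken out, 0.804 without Kmt2a+/+ replicate 1 and 0.389 without the 2 libraries farthest from the median of Meis3. These 2 pairs were the highest of 36, and all points share library depth, genotype and culture, so the values are given as a description.

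**Figure D4:**
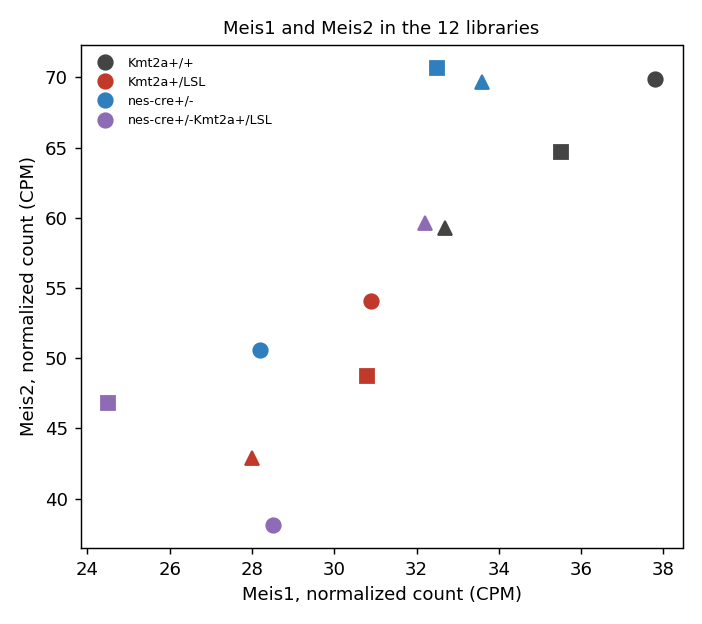
Normalized counts (CPM) of Meis1 and Meis2 in the 12 libraries, coloured by genotype and shaped by replicate number; the axes do not start at 0. Libraries with more Meis1 had more Meis2 (r = 0.793 on the log2 scale), with Kmt2a+/+ replicate 1 at the top right and the nes-cre+/-Kmt2a+/LSL libraries spread from 38.1 to 59.6 in Meis2.

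By the same measure over the 11676 other genes with a mean of at least 50 counts, the genes most like Meis1 were Syn1, a synaptic vesicle gene, at 0.902 and Cnn3, which encodes a calponin, at 0.892. Those most like Meis2 were Sox1, a neural progenitor transcription factor gene, at 0.879 and Stk32a at 0.862. Meis3 was closest to Msi1, which encodes an RNA-binding protein of neural progenitors, at 0.989, and Pbx2 to Hs6st1, a heparan sulfate sulfotransferase gene, at 0.988. Both values were still 0.96 and 0.952 without Kmt2a+/+ replicate 1. The nearest gene was Kpnb1 for Pbx3 at 0.939, Tchp for Pbx4 at 0.912, Uhrf2 for Tgif1 at 0.892, Tceanc for Pknox1 at 0.847 and Dscam for Pknox2 at 0.809.

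The partners with which TALE proteins bind DNA were examined as lists. HOX genes, also known targets of KMT2A, were close to absent: of 18 genes measured, 9 passed the filter, none exceeded 1.25 CPM in any library, and the sum over them was 1.03 to 4.04 CPM. Only 2 of them had more than 3 counts in every library, Hoxb1 at a mean of 0.464 CPM and Hoxd11 at 0.344. In Kmt2a+/LSL against Kmt2a+/+, 7 of the 9 tested were lower and 2 higher, with a median of -0.50, where 49.8% of all genes were lower, and 0 passed at an adjusted or unadjusted p under 0.05. Among the 7, Hoxa3, Hoxa7, Hoxb9, Hoxd9 and Hoxd11 had an SD above their mean in Kmt2a+/+, so their direction can rest on single libraries. Hoxd11 measured 0.515 ± 0.636 CPM there (SD, n = 3), with 1.25 in replicate 1. In nes-cre+/- against Kmt2a+/+, which shares these Kmt2a+/+ libraries, 7 were also lower and 2 higher, with a median of -0.71, where 47.9% of all genes were lower. There 5 of 6 neuron markers and 4 of 4 Y-linked genes were lower too, with medians of -0.16 and -1.11. None of them passed an unadjusted p of 0.05, and their part in the result was not tested. The extremes in Kmt2a+/LSL against Kmt2a+/+ were Hoxb9 at -1.45 (SE 1.78) and Hoxc9 at 1.04 (SE 0.86), which had at most 5 and 9 counts in any library.

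Of 7 other TALE genes listed, 5 were tested, all in the range of 0.988 to 5.32 CPM on average. Irx2, an Iroquois family gene, differed most between Kmt2a+/LSL and Kmt2a+/+, by -1.99 on the log2 scale (SE 0.61, unadjusted p = 0.0071 and adjusted p = 1 in edgeR), from 1.69 ± 1.17 to 0.418 ± 0.0507 CPM (SD, n = 3 each). Kmt2a+/+ replicate 1, the library that stood apart, held its highest value, 3.03 CPM, and part of the difference rested on it. The highest in CPM were Irx3, which differed by 0.11 (SE 0.41), and Irx5, by -0.12 (SE 0.34), while per length Irx1 was higher, at 4 TPM against 3.11 for Irx3. No gene of this list passed at an adjusted p in any of the 4 pairwise comparisons.

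Partners and reported targets of MEIS and PBX proteins in neural cells were represented by 12 genes, of which 10 were tested. Lower values in Kmt2a+/LSL than in Kmt2a+/+ were found for 8 and higher ones for 2, with a median log2 fold change of -0.29, where 49.8% of all genes were lower, and 0 passed at an adjusted or unadjusted p under 0.05. Among the 8, Dlx1 and Dlx2 had an SD above their mean in Kmt2a+/+ (1.2 ± 1.82 CPM for Dlx2, n = 3), so their direction can rest on single libraries. In the same comparison 5 of 6 neuron markers had lower values, with a median of -0.32, as had 5 of 5 markers of ventral telencephalon, with a median of -0.16, and 0 of either passed at an adjusted or unadjusted p under 0.05. These counts leaned on single libraries. Kmt2a+/+ replicate 1 was the highest of all libraries for Dcx, Map2 and Snap25 and the lowest for Tubb3 and Rbfox3. Ventral telencephalon markers summed to 7.79, 20 and 8.27 CPM in Kmt2a+/+ and 7.05, 9.79 and 13.8 in Kmt2a+/LSL. Dlx1, Dlx2, Dcx and Pax6, a progenitor marker, are in both kinds of list, and the part of these cells in the result was not tested. The lowest was Dlx1, a homeobox gene of ventral forebrain neurons, at -1.30 (SE 0.94). It measured 0.844 ± 1.03 CPM in Kmt2a+/+ and 0.343 ± 0.166 in Kmt2a+/LSL (SD, n = 3 each). A single Kmt2a+/+ library held 2.03 CPM, and the difference rested on it. The highest fitted change was that of Th, a gene of dopamine synthesis, which had at most 4 counts in any library and no count in Kmt2a+/+. The most abundant were Pbxip1, whose product binds PBX proteins and blocks their binding to DNA, at 0.19 (SE 0.29), and the cell cycle gene Ccnd1 at -0.06 (SE 0.53). In nes-cre+/-Kmt2a+/LSL against Kmt2a+/LSL 3 were lower and 7 higher, with a median of 0.13, beside 4 of 6 neuron markers and 5 of 5 markers of ventral telencephalon that were higher.

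Retinoic acid induces Meis1 and Meis2 in several tissues, and its pathway was covered by 18 genes, 16 of them tested. In Kmt2a+/LSL against Kmt2a+/+ 9 were lower and 7 higher, with a median of -0.01. The receptor gene Rxrb measured 33.5 ± 26.5 CPM in Kmt2a+/+ and 35.5 ± 1.77 in Kmt2a+/LSL (SD, n = 3 each). A single Kmt2a+/+ library, at 3.15 CPM, brought the means close. Aldh1a2, a retinoic acid synthesis gene with the lowest fitted change, and Crabp1, a binding protein gene with the highest, had at most 9 counts in any library. In nes-cre+/-Kmt2a+/LSL, 14 of the 16 were lower than in nes-cre+/-, with a median of -0.38, where 48.9% of all genes were lower. The same libraries were also low against Kmt2a+/LSL, with 13 genes lower, 2 higher and a median of -0.23, where 49.5% of all genes were lower. In nes-cre+/- against Kmt2a+/+, 6 were lower and 10 higher, with a median of 0.05. Of 5 astrocyte markers 4 were lower in nes-cre+/-Kmt2a+/LSL than in nes-cre+/-, with a median of -0.29. Among them were Gfap at 74.5 ± 19.1 against 210 ± 143 CPM and Aqp4 at 16.3 ± 1.89 against 55.6 ± 37.1 (SD, n = 3 each). S100b went the other way, at 39.3 ± 2.78 against 29.8 ± 2.79 CPM. None of these markers passed at an adjusted or unadjusted p under 0.05, and their part in the result was not tested. None of the 16 passed at an adjusted or unadjusted p under 0.05 in the 4 pairwise comparisons.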

How the data were processed

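RNA of 12 mNPC samples was sequenced by the authors, 3 per genotype, with genotypes and replicate numbers taken from the sample labels. Per the study's methods and the submitters' processing notes, the authors pseudoaligned reads to the GRCm38 (mm10) transcriptome with kallisto 0.48.0, a tool that divides reads among transcripts by shared words, and tximport then gave gene totals. What they deposited is 1 table of estimated counts, whole numbers without normalization, for 18911 genes. Division of shared reads among overlapping or similar transcripts could move a gene's value. Ensembl identifiers were matched to symbols of the GRCm38 annotation for 18718 genes, and the other 193 kept their identifier.

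Tests were run with edgeR 4.0.16, DESeq2 1.42.0 and limma 3.58.1 under R 4.3.3. Genes needed a total over 10 counts and a count in 2 or more libraries as in the study, which left 17076. All 12 libraries entered 1 fit with genotype as the only term, TMM normalization and edgeR's two-sided quasi-likelihood test, and genes were called at a Benjamini-Hochberg adjusted p under 0.05 over all genes. Tests had been planned for raw counts, and the deposited estimates were taken unrounded since they are whole. Log2 levels per library used a prior count of 2. Single genes were also compared with two-sided exact permutation tests, and intervals and floors cover counting error or the spread between these libraries only.

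The members and the lists of HOX genes, other TALE genes, partners and targets, retinoic acid genes and cell type markers were chosen with earlier results of these data known. All members were named. A rule set for each list named at most 4 genes, those with the highest and lowest fold change in Kmt2a+/LSL against Kmt2a+/+ and the 2 most abundant in CPM. Other list and marker genes named in the text were chosen after their values were seen. A further 2 TALE genes of the list are not reported here. The likeness of genes was Pearson's correlation of log2 CPM over 12 libraries, with no p. Gene lengths, positions and the share of 31-base words found in other genes came from the GRCm38 annotation, and promoter windows from RefSeq. The fits were tested on simulated counts with 200 genes changed by known fold changes.

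Single choices were also changed 1 at a time, to size factors of DESeq2, its Wald test, z-scores of that test rescaled to an empirical null (standing for the fdrtool step of the study), limma-voom with quality weights, robust quasi-likelihood, no filter, a minimum of 10 counts in each library, replicate number as a block, 9 libraries without nes-cre+/-, the longest transcript as length, and each library left out in turn.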

Additional observations from a re-analysis of the deposited data

How the results depend on the processing

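Of the 9 members, 0 were called in any comparison under any alternative. The number of genes called moved with the test. DESeq2's Wald test called 7, 7, 3 and 3 genes in the 4 pairwise comparisons (Kmt2a+/LSL against Kmt2a+/+, nes-cre+/-Kmt2a+/LSL against Kmt2a+/LSL, nes-cre+/- against Kmt2a+/+, and nes-cre+/-Kmt2a+/LSL against nes-cre+/-), 10 for the difference between the LSL effects, 4 for Kmt2a+/LSL against the mean of the other 3 genotypes and 5 for any difference. The empirical null called 26, 935, 3 and 241 genes in the pairwise comparisons, 15 for the difference between the LSL effects and 420 for Kmt2a+/LSL against the other 3. Limma-voom called 2 in each of the first 2 comparisons, 4 for Kmt2a+/LSL against the other 3 and 2 for any difference. With single libraries left out, the range was 0 to 2 genes for Kmt2a+/LSL against Kmt2a+/+, 0 to 2 against the mean of the other 3 and 0 to 3 for any difference, the upper ends each without Kmt2a+/+ replicate 1. The cause of these differences was not tested.

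Directions of small differences turned. In Kmt2a+/LSL against Kmt2a+/+, Pbx4 was -0.02 with DESeq2 size factors, the Wald test and the empirical null and 0 with at least 10 counts in every library. Under limma-voom it was -0.04, with Meis3 at -0.31, Pbx2 at -0.15, Pbx3 at 0.16 and Pknox1 at -0.01. In nes-cre+/-Kmt2a+/LSL against Kmt2a+/LSL, Meis2 was 0 with DESeq2 size factors, the Wald test, the empirical null and the stricter filter, and 0.02 with limma-voom. Limma-voom also gave 0.08 for Meis2 and -0.13 for Meis3 and for Pbx2 in nes-cre+/- against Kmt2a+/+, -0.03 for Pknox1 and 0.04 for Pknox2 in nes-cre+/-Kmt2a+/LSL against nes-cre+/-, and -0.09 for Meis3 and -0.06 for Pbx2 in Kmt2a+/LSL against the other 3 genotypes.

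With single libraries left out, ranges that crossed or reached 0 were, in Kmt2a+/LSL against Kmt2a+/+, -0.32 to 0.44 for Meis3, -0.17 to 0.28 for Pbx2, -0.22 to 0.15 for Pbx3 and -0.20 to 0.25 for Pbx4. In nes-cre+/-Kmt2a+/LSL against Kmt2a+/LSL they were -0.17 to 0.02 for Meis1, -0.19 to 0.13 for Meis2, -0.19 to 0.05 for Pbx2 and -0.26 to 0.10 for Pbx4. For nes-cre+/- against Kmt2a+/+ they were -0.10 to 0.12 for Meis2, -0.17 to 0.59 for Meis3, -0.17 to 0.29 for Pbx2, -0.36 to 0 for Pbx3, -0.16 to 0.06 for Pknox2 and -0.02 to 0.34 for Tgif1. With nestin-Cre in both groups they were -0.19 to 0.05 for Pbx2, -0.14 to 0.09 for Pbx3, -0.05 to 0.08 for Pknox1 and -0.10 to 0.09 for Pknox2. Against the mean of the other 3 genotypes, they were -0.05 to 0.20 for Meis3, -0.02 to 0.12 for Pbx2, -0.04 to 0.18 for Pbx3 and -0.23 to 0.13 for Pbx4.

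Meis1 and Meis2 stayed lower in Kmt2a+/LSL than in Kmt2a+/+ under every alternative run. Same-numbered libraries of different genotypes deviated together with a mean correlation of 0.0844 over 18 pairs (range -0.0717 to 0.416), against -0.0407 for 36 pairs with different numbers. Only 5 of the 18 pairs were over 0.1, so a shared number was not used as a pairing. Libraries numbered 1 had the highest mean, 0.15 over 6 pairs (range 0.0696 to 0.416), against 0.0521 for number 2 and 0.0514 for number 3. Of the 6 pairs of numbers 1, 2 and 3, there were 2, 1 and 2 over 0.1. With the replicate block, 0 genes were called in every comparison, against 1 without it, Grb10, for Kmt2a+/LSL against the other 3 genotypes, a call that was also lost on leaving out any of 10 of the 12 libraries in turn (its log2 difference was -1.35, -1.36 with the block and -1.46 to -1.24 with single libraries left out), and Meis2 stayed at -0.41 in Kmt2a+/LSL against Kmt2a+/+. The full width of the 95% intervals of members was 0.67 (Pknox1) to 1.96 (Meis3) on the log2 scale in the pairwise comparisons.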

Other observations

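Libraries numbered 1 held the extreme of their genotype for a few members. Meis3 was lowest in replicate 1 in all 4 genotypes and Pbx3 highest in replicate 1 in all 4, while Pbx2 was lowest there in 3 genotypes and Tgif1 highest in 3. Among 11677 genes with a mean of at least 50 counts, 9.06% were lowest and 9.17% highest in replicate 1 of all 4 genotypes, where unrelated ranks would give 1.23% each. The shares were 0.814% and 0.968% for replicate 2 and 2.47% and 2.35% for replicate 3. Genes of a library vary together, so these shares are a description and not a test. The pattern was noticed in these values, and the labels do not say what a shared number stands for.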
